A study of Rattus norvegicus with 15 samples.

Results

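Bone morphogenetic proteins (BMPs) signal to the nucleus through a short chain of proteins, and 10 genes of that chain were followed here in neonatal rat islet cells. They are the receptor genes Bmpr1a, Acvr1 and Bmpr2, the SMAD genes Smad1, Smad5 and Smad6, and the target genes Id1, Id2, Id3 and Id4. Members were found by gene symbol, and 10 of 10 were among the 17055 genes counted in each library. The cells came from islets of 10-day-old Sprague-Dawley rats, were dispersed, and were transfected either with a control miRNA mimic or with miR-17-5p, a synthetic copy of that microRNA. From each kind of transfection, polyadenylated RNA was sequenced (mRNA libraries), and so was RNA recovered with an antibody against Ago2, the Argonaute protein to which microRNAs are bound in the RNA-induced silencing complex (RISC libraries). Libraries of the control mimic numbered 3 for mRNA and 3 for RISC, and those of miR-17-5p numbered 5 for mRNA and 4 for RISC. All groups share strain, age, tissue and the transfection procedure itself. A dispersed islet is a mixture of endocrine and other cells, the share of cells that took up a mimic is not given in the sources used here, and in such a mixture fewer cells of a type and less RNA per cell cannot be told apart. The labels speak of biological replicates but number them one way in titles and another in descriptions. The p-values below therefore reflect spread among libraries that could be partly technical.

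As background, BMP ligands bring together type I receptors such as those encoded by Bmpr1a and Acvr1 with a type II receptor such as that encoded by Bmpr2. The activated type I kinase phosphorylates SMAD1 and SMAD5, which enter the nucleus with SMAD4 and switch on target genes, among them the Id genes and Smad6, whose product inhibits the same pathway. Id proteins are helix-loop-helix proteins without a DNA-binding region: they hold E proteins away from partners such as the beta cell factor NEUROD1. Signalling through BMPR1A has been linked to insulin secretion by beta cells, and Bmpr2 is known as a target of the miR-17 family in other cell types.

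A microRNA selects transcripts mainly through its seed, bases 2 to 8 counted from the 5′ end. The sequence of the transfected species is shown because every comparison with the control mimic turns on it. RefSeq (rat assembly GRCr8) places it at chr15:98587861-98587883 on the plus strand. Written 5′ to 3′ with the seed in capitals, it reads:
miR-17-5p: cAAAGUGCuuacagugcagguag
The seed AAAGUGC is shared by 5 mature rat microRNAs in the RefSeq table, namely miR-17-5p, miR-20a-5p, miR-20b-5p, miR-93-5p and miR-106b-5p. Transcript ends, where such seeds pair, were not analysed here, so no member is described as carrying or lacking a site.

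The promoters of Id3 and Id1 are shown next because these Id genes are classical direct targets of SMAD1 and SMAD5. Id3 is also the member that passed the test of mRNA level described below. Each stretch covers 250 bases before to 50 bases after the gene's start in GRCr8, 5′ to 3′ along the gene: chr5:153656041-153656340 on the plus strand for Id3 and chr3:161671314-161671613 on the plus strand for Id1. Capitals mark 2 motifs searched on both strands, the SMAD box GTCT and the GC box GGGCGG.
Id3 promoter: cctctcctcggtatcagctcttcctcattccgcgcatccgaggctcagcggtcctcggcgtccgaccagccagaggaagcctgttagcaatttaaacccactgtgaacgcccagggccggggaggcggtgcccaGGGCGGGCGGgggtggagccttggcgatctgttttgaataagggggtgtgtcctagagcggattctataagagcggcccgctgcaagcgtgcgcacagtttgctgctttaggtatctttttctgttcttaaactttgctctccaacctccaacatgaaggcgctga
Id1 promoter: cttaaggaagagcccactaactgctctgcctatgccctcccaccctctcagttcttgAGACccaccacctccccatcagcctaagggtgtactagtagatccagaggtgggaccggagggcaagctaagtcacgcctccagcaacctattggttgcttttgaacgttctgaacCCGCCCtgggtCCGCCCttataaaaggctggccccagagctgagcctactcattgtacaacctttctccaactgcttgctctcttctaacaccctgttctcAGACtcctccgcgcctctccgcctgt
The Id3 window held 2 overlapping GC boxes and 0 SMAD boxes. The Id1 window held 2 GC boxes and 2 SMAD boxes, written on the other strand as CCGCCC and AGAC. Among the 8 members with a promoter in the table (Acvr1 and Smad6 had none), 6 held a GC box (75.0%), against 33.1% of all 33469 rat promoters of this length, and 5 held a SMAD box (62.5%), against 88.8%. The palindrome GGCGCC, to which SMAD1 and SMAD5 are known to bind, was found in 1 of the 8, that of Id4, against 11.0% of all. These are matches of letters in a window and say nothing of binding in these cells. Bases farther upstream were not searched, so the counts do not show whether a gene has SMAD sites elsewhere.

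Libraries held 3379456 to 21056240 counts assigned to genes. Transcripts of Ins1 and Ins2, which define beta cells, took 26.2% to 41.8% of counts where polyadenylated RNA was sequenced and 0.947% to 1.97% in RISC. Control RISC libraries stood apart: they detected 5589 to 7424 genes, miR-17-5p RISC libraries 9040 to 10753, and mRNA libraries 11142 to 12997. Of the genes tested in mRNA, 34.2% to 50.05% were at 0 in a control RISC library, against 7.39% to 20.3% in a miR-17-5p RISC library. Among the 10 members 4, 1 and 3 were at 0 in control RISC libraries 1, 2 and 3, where 3 counts stand for 0.224, 0.346 and 0.717 counts scaled to library size (CPM). Results for the members that rest on these libraries are therefore given also with control RISC libraries left out. Floors and intervals of counts cover counting error only.

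The first comparison asked how the added miR-17-5p moved the level of the members in polyadenylated RNA. Id3 rose by 0.68 ± 0.15 (log2 fold change ± SE), and it was the 1 member of 10 to pass the test. The receptors, the SMADs and the other Id genes did not pass it. Of all 11077 genes tested, 429 passed (3.87%), 344 higher and 85 lower (3.11% and 0.767%), so 1 member in 10 is a single gene against that background. Here and throughout, adjusted p is from the quasi-likelihood F-test of edgeR with Benjamini-Hochberg adjustment over all genes tested, and a gene passed at an adjusted p under 0.05. Over the 10 members the median log2 fold change was 0.14, and over all genes tested it was 0.01.

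Among the receptors, Bmpr2, the type II receptor, measured 24.8, 29.8 and 54.9 CPM in control mRNA libraries 1, 2 and 3. In miR-17-5p mRNA libraries 1, 2, 4, 5 and 6 it measured 34.0, 39.6, 61.9, 40.6 and 52.7 CPM. The groups overlapped because the third control library was above 4 of the 5 miR-17-5p libraries, and the log2 fold change was 0.35 ± 0.26 (adjusted p = 0.518). Bmpr1a, a type I receptor, measured 13.1, 9.07 and 24.0 CPM in control libraries and 14.8, 28.2, 14.2, 13.7 and 13.9 CPM with miR-17-5p. In each group 1 library was high and the others lay together, and the log2 fold change was 0.18 ± 0.34 (adjusted p = 0.825). Acvr1, the type I receptor also called ALK2, measured 21.8, 23.5 and 19.0 CPM in control libraries and 12.1, 16.8, 33.0, 24.6 and 20.7 CPM with miR-17-5p. Its control libraries all fell inside the range of the miR-17-5p libraries, with a log2 fold change of -0.02 ± 0.28 (adjusted p = 0.982).

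Of the SMADs that carry the signal, Smad1 measured 30.4, 40.6 and 39.3 CPM in control libraries. With miR-17-5p it measured 29.3, 24.9, 31.1, 33.2 and 31.2 CPM. The groups overlapped in their lower control and upper miR-17-5p libraries, and the log2 fold change of -0.29 ± 0.17 was the lowest of the 10 members (adjusted p = 0.385). Smad5 measured 26.8, 22.0 and 21.2 CPM against 30.8, 21.6, 23.2, 23.9 and 17.6 CPM, with a log2 fold change of 0.00 ± 0.21 (adjusted p = 0.996). Smad6, the inhibitory SMAD, was scarce: 7.04, 3.48 and 1.25 CPM in control libraries against 4.85, 1.40, 3.29, 8.26 and 3.62 CPM. Its spread within groups spanned more than the difference between them, and the log2 fold change was 0.06 ± 0.62 (adjusted p = 0.970). A missed threshold does not show that these genes kept their level.

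Id3 measured 109, 86.3 and 71.4 CPM in control mRNA libraries 1, 2 and 3, from 1161, 695 and 229 counts. In miR-17-5p libraries 1, 2, 4, 5 and 6 it measured 129, 163, 157, 139 and 129 CPM. All 5 miR-17-5p libraries were above all 3 control libraries, a separation that 8.51% of all genes tested showed upward and 6.68% downward. The group means were 88.9 ± 18.9 CPM (SD, n = 3) and 143 ± 15.7 CPM (SD, n = 5), and the adjusted p was 0.0267. The call was lost without control library 2, control library 3, miR-17-5p library 4 or miR-17-5p library 5, with adjusted p from 0.0150 to 0.141 and log2 fold changes from 0.55 to 0.86 over the 8 fits that left out a library. With a block for the replicate numbers of the titles, 0 genes of the whole mRNA comparison were called. Only numbers 1 and 2 occur in both mRNA groups, so this block left little to test with. The loss of the call under it therefore says little about Id3.

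The other Id genes gave smaller or less certain differences. Id1 measured 14.3, 14.4 and 23.1 CPM in control libraries and 23.5, 18.9, 14.4, 25.6 and 18.0 CPM with miR-17-5p, with a log2 fold change of 0.24 ± 0.25 (adjusted p = 0.657). Id2 measured 23.9, 18.5 and 16.8 CPM in control libraries and 29.0, 21.4, 23.2, 35.9 and 23.1 CPM with miR-17-5p, so that control library 1 exceeded 3 of the 5. Its log2 fold change was 0.41 ± 0.22 (adjusted p = 0.354). Id4 was at the edge of detection, with 21, 7 and 0 counts in control libraries and 21, 0, 18, 1 and 16 with miR-17-5p, and its log2 fold change was 0.11 ± 1.19 (adjusted p = 0.973).

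**Figure D1:**
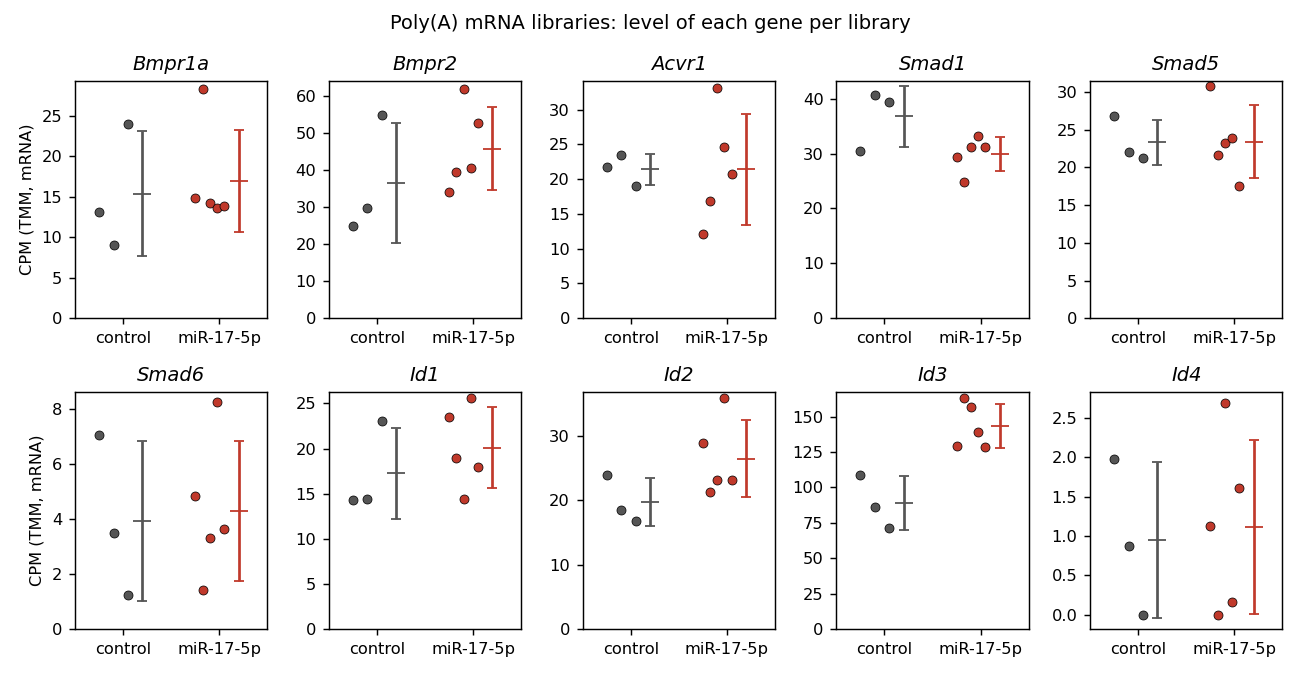
Level of each of the 10 genes in mRNA libraries, in CPM on a linear axis, with 1 panel per gene. Points are libraries (3 control, 5 miR-17-5p) and bars are the mean ± SD; Id3 is the 1 panel whose groups do not overlap, at 71.4 to 109 CPM in control and 129 to 163 CPM with miR-17-5p.

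Markers of other cell types moved in the same libraries. The summed level of 13 stellate cell and fibroblast markers was 8701 to 15126 CPM in control mRNA libraries and 15279 to 33708 CPM with miR-17-5p, with no overlap. Of these, 12 were tested and 7 rose (Acta2, Col1a1, Pdgfrb, Sparc, Thy1, Des and Vim), while Col1a2 was listed at 0 in all libraries. Macrophage and leukocyte markers summed to 45.9 to 192 CPM and 92.4 to 272 CPM, and 0 of 10 passed. Endothelial markers summed to 192 to 295 CPM and 166 to 328 CPM, and 2 of 11 tested fell (Cdh5 and Kdr). Beta cell markers summed to 365150 to 441618 CPM and 257594 to 477500 CPM, and 0 of 9 passed. Red blood cell markers summed to 19.4 to 75.2 CPM and 3.03 to 12.3 CPM, with no overlap, and 2 of 3 tested fell (Hba2 and Hbb). Of duct markers 1 of 6 tested fell (Epcam), of Schwann and neural markers 1 of 7 rose (Cryab), and of acinar markers (5 tested) and those of alpha, delta and PP cells (8 tested) none passed. The part of these cell types in the Id3 result was not tested.

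The genes whose level most resembled that of Id3 were sought among 5949 genes whose log2 CPM averaged 4 or more. Over the 8 mRNA libraries the highest Pearson correlations of log2 CPM were those of Eif3c (0.994), which encodes a subunit of a translation initiation factor, S100a6 (0.989), which encodes a calcium-binding protein, Kctd10 (0.989), Sord (0.988), the gene for sorbitol dehydrogenase, and Lta4h (0.987). The 8 libraries differ in depth, mimic and marker levels, all of which can enter these correlations, and they are a description without a test.

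Around the members, the wider pathway was read from a list of 76 further BMP genes, of which 67 were in the tables and 53 were tested in mRNA. Of these 4 rose (7.55%, against 3.11% of all genes) and 0 fell. A log2 fold change above 0 was found for 41 (77.4%, against 50.7% of all genes), and the median was 0.42, against 0.01 for all genes. Secreted inhibitors and modulators, which bind ligands or shape their action outside the cell, held 2 of the 4 among 11 tested, with a median of 1.09. BMP ligands held 1 of 6 (median 0.56), and intracellular regulators 1 of 14 (median 0.12). None passed among 6 other receptors and co-receptors (median 0.79), 5 other SMADs (0.66), 8 other target genes (0.42) and 3 E proteins (0.09).

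Fstl1, a secreted follistatin-like glycoprotein, measured 312, 234 and 178 CPM in control mRNA libraries and 583, 756, 1067, 897 and 794 CPM with miR-17-5p. It rose by 1.76 ± 0.22 (adjusted p = 0.00125), and every miR-17-5p library was above every control library. Crim1, a membrane protein with chordin-like repeats that bind BMPs, measured 45.7, 37.9 and 30.0 CPM in control libraries and 82.8, 86.1, 90.8, 81.9 and 85.1 CPM with miR-17-5p. It rose by 1.16 ± 0.15 (adjusted p = 0.00138), and both Fstl1 and Crim1 kept their call in all 8 fits that left out a library. Bmp6, a ligand, measured 4.41, 4.35 and 6.55 CPM in control libraries and 8.40, 27.2, 23.6, 27.7 and 21.0 CPM with miR-17-5p. It rose by 2.11 ± 0.39 (adjusted p = 0.00955; 0.0757 without control library 2). Smurf2, a ubiquitin ligase that marks receptors and SMADs for destruction, had means of 35.1 ± 5.37 CPM (SD, n = 3) and 56.9 ± 7.14 CPM (SD, n = 5). It rose by 0.68 ± 0.16 (adjusted p = 0.0349), and the call was lost in 5 of the 8 fits that left out a library: control library 2 or 3, or miR-17-5p library 4, 5 or 6. Fstl1, Crim1, Bmp6 and Smurf2 rose in the libraries in which the stellate and fibroblast markers were higher, and the part of those cells in their values was not tested.

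**Figure D2:**
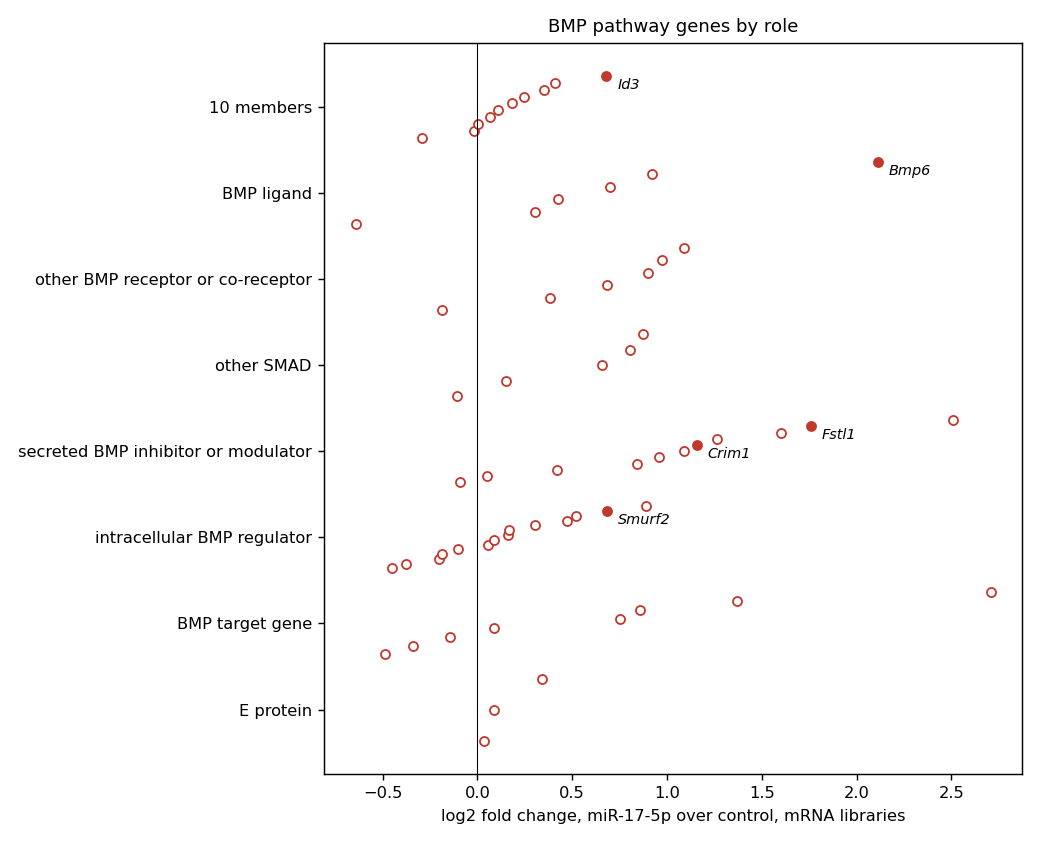
Log2 fold change in mRNA of miR-17-5p over control for the 10 genes followed here and for 53 other BMP pathway genes, in rows by role. Each point is a gene, filled and named where the adjusted p was under 0.05; Id3 is the filled point among the 10, and 4 of the 53 are filled, all above 0.

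The comparison of Ago2-bound with polyadenylated RNA asked which members are over- or under-represented in RISC. In cells with miR-17-5p all 3 receptors and both signal-carrying SMADs were higher in RISC, and Id3 was lower. In all 6 of 9 tested members passed, 5 higher and 1 lower. Many genes passed here: 4727 of 10871 (43.5%), 21.7% higher and 21.8% lower. The median log2 ratio was 0.92 over the members tested and -0.15 over all genes tested. Polyadenylated RNA was selected for mRNA libraries only, as far as the labels state, so binding to Ago2 and the kind of library cannot be told apart in these ratios. CPM values of the 2 library types were scaled separately and the tests rescaled them together, so ratios are those of the tests. CPM values of the 2 types are given side by side as a description only.

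Bmpr2 measured 409, 462, 295 and 130 CPM in miR-17-5p RISC libraries 2, 4, 5 and 6, from 782 to 5250 counts. Its mRNA level was 34.0 to 61.9 CPM, and library 6 was the lowest of the RISC libraries. The log2 ratio was 2.53 ± 0.33 (adjusted p = 8.1e-05), which lies 2.68 above the median of all genes tested. Smad5 measured 150.4, 180.5, 148 and 98.2 CPM in RISC, against 17.6 to 30.8 CPM in mRNA. Its log2 ratio was 2.32 ± 0.22 (adjusted p = 9.8e-06). Bmpr2 and Smad5 thus had the highest ratios among the 9 tested members.

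Bmpr1a measured 62.8, 56.5, 58.9 and 80.3 CPM in RISC and 13.7 to 28.2 CPM in mRNA. The log2 ratio was 1.63 ± 0.26 (adjusted p = 4.2e-04). Acvr1 measured 68.1, 108, 59.5 and 60.7 CPM in RISC and 12.1 to 33.0 CPM in mRNA, with a log2 ratio of 1.49 ± 0.30 (adjusted p = 0.00178). Smad1 measured 68.8, 58.8, 70.9 and 79.2 CPM in RISC and 24.9 to 33.2 CPM in mRNA, with a log2 ratio of 0.92 ± 0.18 (adjusted p = 0.00147). Of these 3 genes Acvr1 had the widest spread between RISC libraries, through library 4.

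Among the Id genes, Id3 went the other way. It measured 116, 54.8, 74.3 and 58.3 CPM in RISC and 129 to 163 CPM in mRNA. The log2 ratio was -1.20 ± 0.23 (adjusted p = 0.00141), which lies 1.06 below the median of all genes. Id1 measured 29.6, 17.5, 31.8 and 21.2 CPM in RISC and 14.4 to 25.6 CPM in mRNA, with a log2 ratio of 0.03 ± 0.30 (adjusted p = 0.948). Id2 measured 16.4, 52.7, 28.6 and 24.5 CPM in RISC and 21.4 to 35.9 CPM in mRNA, with a log2 ratio of -0.10 ± 0.33 (adjusted p = 0.832). The sign of Id1 depended on the scaling (-0.10 with DESeq2 size factors). Smad6 measured 3.20, 0.105, 7.41 and 7.67 CPM in RISC, where library 4 held 1 count, and its log2 ratio was -0.18 ± 1.00 (adjusted p = 0.902). Id4 was not tested in RISC, where 17 of its counts were in miR-17-5p library 5 and the other miR-17-5p RISC libraries held 0.

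The 6 calls held in all 9 fits that left out a library and in the 7 other settings tried. Over the fits that left out a library the log2 ratio ran from 2.34 to 2.80 for Bmpr2, from 2.22 to 2.48 for Smad5, from 1.53 to 1.89 for Bmpr1a, from 1.27 to 1.70 for Acvr1, from 0.85 to 1.00 for Smad1 and from -1.50 to -1.06 for Id3.

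**Figure D3:**
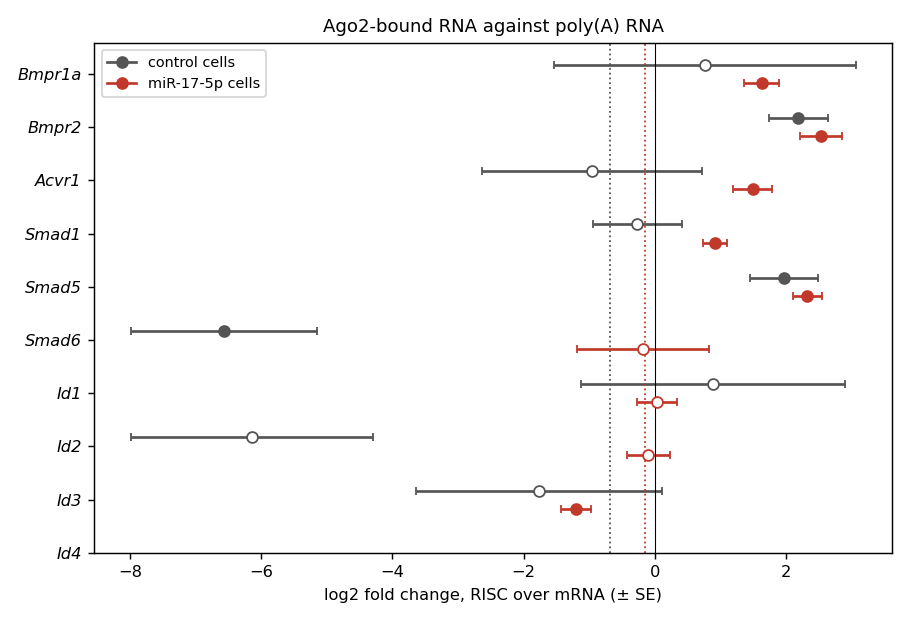
Log2 ratio of RISC over mRNA for each gene, in miR-17-5p cells and in control cells, as fitted by edgeR with SE bars; filled points had an adjusted p under 0.05 and dotted lines mark the median of all genes tested in each comparison. In miR-17-5p cells Bmpr2, Smad5, Bmpr1a, Acvr1 and Smad1 lie to the right of that median and Id3 to the left, while in control cells the bars of Id1, Id3, Bmpr1a and Acvr1 are wide; the row of Id4 is empty because it was not tested.

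In control cells the same ratio passed for 3 of 9 tested members: Bmpr2 and Smad5 were higher in RISC, and Smad6 was lower. Of all 10170 genes tested 2870 passed (28.2%), 5.96% higher and 22.3% lower, and the median was -0.69. Bmpr2 measured 201, 157 and 315 CPM in control RISC libraries 1, 2 and 3, with a log2 ratio of 2.19 ± 0.45 (adjusted p = 0.0147). Smad5 measured 80.1, 214 and 81.5 CPM, with a log2 ratio of 1.97 ± 0.52 (adjusted p = 0.0361). In control mRNA libraries Bmpr2 reached 54.9 CPM and Smad5 reached 26.8 CPM.

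Smad6 held 0, 1 and 0 counts in control RISC libraries and 75, 28 and 4 in control mRNA libraries. A filter on low counts admitted a gene to the test only where enough libraries held enough counts. Smad6 met it through mRNA libraries alone, so the filter fixed its direction, and its call is a description. Pooled by group, its share of counts in mRNA was 128 times that in RISC (95% counting interval 22.6 to 5120), and the adjusted p was 0.0178. Without control RISC library 1, 2 or 3 the adjusted p was 0.0289, 0.0161 and 0.0268 for Bmpr2, 0.0264, 0.0472 and 0.0235 for Smad5, and 0.0309, 0.0235 and 0.0408 for Smad6. Among the fits that left out a library, these calls were lost only without a control mRNA library. That of Bmpr2 was lost without control mRNA library 1 or 2 (adjusted p up to 0.0697), that of Smad5 without any of the 3 (up to 0.128) and that of Smad6 without library 2 (0.0600). Smad6 was not tested without control mRNA library 1. The call of Smad5 was also lost under DESeq2 size factors and with a mean of at least 50 counts, while its direction held. With a block for replicate numbers the calls of Smad5 and Smad6 were lost, and that of Bmpr2 was kept.

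Other members were scattered in control RISC. Bmpr1a measured 104, 0.898 and 0 CPM, from 1612, 7 and 0 counts, so that 1 library held nearly all of it, and its log2 ratio was 0.77 ± 2.30 (adjusted p = 0.893). Without control RISC library 1 that ratio was -5.44. Id1 measured 0, 67.7 and 63.4 CPM and Id3 0, 80.8 and 26.7 CPM, and both were absent from the counts of control RISC library 1. Acvr1 measured 0.0642, 19.9 and 25.6 CPM, again lowest in library 1, where it held 1 count. Smad1 measured 68.0, 17.3 and 38.2 CPM, with a log2 ratio of -0.27 ± 0.68 (adjusted p = 0.872), or 0.07 without control RISC library 2. Id2 held 0, 3 and 4 counts. It too met the filter on low counts through mRNA libraries alone, which fixed its direction. Its pooled share of counts in mRNA was 78.5 times that in RISC (95% counting interval 37.8 to 196), with an adjusted p of 0.0602. That lower value of Id2 passed without control RISC library 1 (adjusted p = 0.0101, where 38.6% of genes passed) or 3 (0.0434, 37.8%), and not without library 2 (0.0708). It also passed with the Wald test of DESeq2 (7.6e-07, 36.8% of genes) and with limma-voom (0.00559, 38.1%). The log2 ratio in edgeR without control RISC library 1, 2 or 3 was 1.47, 0.34 and 0.51 for Id1, -1.19, -3.28 and -1.61 for Id3, and -0.37, -1.28 and -1.57 for Acvr1. None of these 9 values passed, with the lowest adjusted p at 0.0755 for Id1.

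Of the other BMP genes, 53 were tested in miR-17-5p cells, and 22 were higher and 6 lower in RISC (52.8% in all, against 43.5% of all genes), with a median log2 ratio of 0.50. Smad7, an inhibitory SMAD that blocks receptor signalling, had a log2 ratio of 1.96 ± 0.19 (adjusted p = 9.6e-06). It was 1 of 3 of the 5 other SMADs that were higher. Tob1, a repressor of BMP signalling through SMADs, had a ratio of 2.39 ± 0.17 (adjusted p = 1.4e-06), and Smurf2 one of 1.75 ± 0.18 (adjusted p = 1.5e-05). Both belong to the intracellular regulators, of which 7 of 14 were higher and 2 lower. The 3 E proteins, partners that Id proteins sequester, were split: Tcf4 was higher at 2.74 ± 0.26 (adjusted p = 9.1e-06), and Tcf3 was lower at -0.98 ± 0.23 (adjusted p = 0.00429). Fkbp1a, whose product binds and quiets type I receptors, was lower at -0.93 ± 0.20 (adjusted p = 0.00313). Ctdsp1, a phosphatase that acts on SMADs, was lower at -0.85 ± 0.20 (adjusted p = 0.00451). Hamp, the gene for the BMP-driven hormone hepcidin, held 126 counts in mRNA and 0 in RISC, at least 32.6-fold lower against a floor of 3 counts over the group. Hamp met the filter on low counts through mRNA libraries alone, which fixed its direction. The call of Hamp was lost with a block for replicate numbers.

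In control cells 45 of these genes were tested, 4 higher and 7 lower (24.4% in all, against 28.2% of all genes), with a median of -0.12. Tob1 (2.39 ± 0.29, adjusted p = 0.00791), Tcf4 (2.67 ± 0.39, 0.00882), Smurf2 (1.75 ± 0.45, 0.0349) and Smad7 (1.70 ± 0.48, 0.0465) were higher in RISC. The first 2 kept their call in all 6 fits that left out a library, Smurf2 in 1 and Smad7 in 2. Among the lower genes, Bmp6 had 103 counts in mRNA and 0 in RISC (at least 41.2-fold lower), and Grem1, a secreted antagonist, 73 and 0 (at least 29.2-fold). Nbl1, a secreted BMP antagonist, had 628 counts against 1, and the homeobox gene Nkx2-3 had 54 against 2. Bmp6, Grem1, Nbl1 and Nkx2-3 met the filter on low counts through mRNA libraries alone. Their direction was thus fixed by the filter, and their calls are a description. The calls of Bmp6, Grem1 and Nkx2-3 held in all 6 fits that left out a library, and that of Nbl1 was lost without control mRNA library 1 or 2 (adjusted p up to 0.0598). With a block for replicate numbers the calls of Smurf2, Smad7, Bmp6, Grem1, Nbl1 and Nkx2-3 were lost. The calls of Smurf2 and Smad7 were also lost with a mean of at least 50 counts. That of Smad7 was lost with DESeq2 size factors and with no filter on low counts too. The mRNA libraries of each treatment enter both this comparison and the one between treatments, so the 2 are not independent.

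The comparison of treatments within RISC asked how miR-17-5p moved the members in Ago2-bound RNA. No member of 9 tested passed (35 of 9443 genes did, 0.371%, 32 of them higher, 0.339%, and 3 lower, 0.0318%). Id2 and Smad6 had an unadjusted p under 0.05 in edgeR (0.0111 and 0.0186), and the Wald test of DESeq2 called these 2 where it called 13.8% of all genes. Both met the filter on low counts through miR-17-5p libraries alone. That filter fixed their direction, so these p-values are a description. Id2 and Acvr1 were higher in every miR-17-5p library than in every control library, a separation that 17.8% of genes showed upward and 3.19% downward. The median log2 fold change over the members tested was 0.89, and over all genes 0.27.

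Id2 was the member with the largest contrast that every library shared. It held 0, 3 and 4 counts in control RISC libraries 1, 2 and 3, or 0, 0.385 and 0.753 CPM, and 210, 504, 255 and 147 counts in miR-17-5p RISC libraries 2, 4, 5 and 6, or 16.4, 52.7, 28.6 and 24.5 CPM. Pooled by group, its share of counts was 106 times higher with miR-17-5p (95% counting interval 51.4 to 265). The fitted log2 fold change was 6.34 ± 2.00 (adjusted p = 0.106 in edgeR, 7.7e-06 in DESeq2). Without control RISC library 1, 2 or 3 it was 5.67, 6.43 and 7.33, with adjusted p of 0.0683, 0.0946 and 0.101. In mRNA libraries of control cells the same gene was well covered, at 54 to 255 counts.

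Smad6 held 0, 1 and 0 counts in control RISC and 41, 1, 66 and 46 with miR-17-5p. The groups overlapped through miR-17-5p library 4. The pooled ratio was 103 (95% counting interval 18.1 to 4079), from 1 count against 154, and the fitted log2 fold change was 6.40 ± 2.23 (adjusted p = 0.129 in edgeR, 0.0451 in DESeq2). Without control RISC library 1, 2 or 3 it was 5.74, 8.49 and 6.02, with adjusted p of 0.236, 0.141 and 0.277. Acvr1 rested at 0.0642, 19.9 and 25.6 CPM in control RISC and 68.1, 108, 59.5 and 60.7 CPM with miR-17-5p. Its log2 fold change was 2.29 ± 1.32 (adjusted p = 0.459), and 1.65 ± 0.55 without control RISC library 1 (adjusted p = 0.122).

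For Bmpr2, the group means in RISC were 224 ± 81.6 CPM (SD, n = 3) in control and 324 ± 147 CPM (SD, n = 4) with miR-17-5p, where library 6 at 130 CPM was below all 3 control libraries. The log2 fold change was 0.53 ± 0.43 (adjusted p = 0.731). Smad5 had means of 125 ± 76.8 and 144 ± 34.1 CPM and a log2 fold change of 0.21 ± 0.42 (adjusted p = 0.974). The type II receptor and this SMAD were thus well covered in RISC of both treatments, and their difference did not exceed the spread between libraries. Smad1 had means of 41.2 ± 25.5 and 69.4 ± 8.39 CPM and a log2 fold change of 0.75 ± 0.59 (adjusted p = 0.713). Bmpr1a had means of 34.8 ± 59.5 and 64.6 ± 10.8 CPM and a log2 fold change of 0.89 ± 1.64 (adjusted p = 0.968). Because its control level came from library 1, that value was 7.01 ± 1.40 without it (adjusted p = 0.0683). Without control RISC library 1, 2 or 3 the log2 fold change was 0.40, 0.32 and 0.83 for Bmpr2, -0.07, 0.83 and -0.05 for Smad5, and 1.27, 0.39 and 0.67 for Smad1, and none passed. The sign for Smad5 thus depended on control RISC library 1 or 3.

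Id3 and Id1 were split among the control RISC libraries. Id3 had means of 35.8 ± 41.2 CPM (SD, n = 3) and 75.9 ± 28.1 CPM (SD, n = 4) and a log2 fold change of 1.08 ± 1.46 (adjusted p = 0.924), or 0.45 ± 0.59 without control RISC library 1. Id1 had means of 43.7 ± 37.9 and 24.99 ± 6.78 CPM and a log2 fold change of -0.81 ± 1.59 (adjusted p = 0.974). In control RISC libraries 2 and 3 Id1 was above all 4 miR-17-5p libraries, and in library 1 it was at 0. Without library 1 the log2 fold change was -1.44 ± 0.63 (adjusted p = 0.220).

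**Figure D4:**
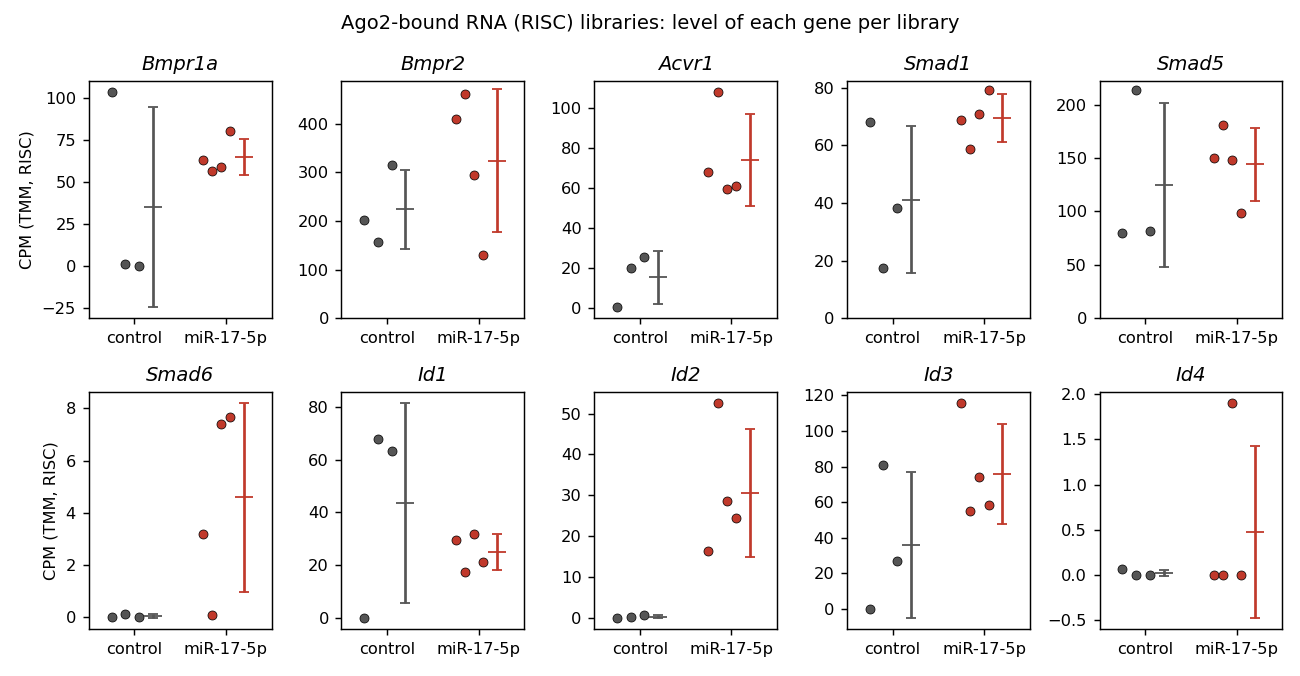
Level of each gene in RISC libraries, in CPM on a linear axis, with 1 panel per gene; points are libraries (3 control, 4 miR-17-5p) and bars the mean ± SD, which can reach below 0 where 1 control library holds most of the signal. Id2 is near 0 in all 3 control libraries and between 16.4 and 52.7 CPM with miR-17-5p, while Id1, Id3 and Bmpr1a are split among the control libraries.

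Among the other BMP genes in RISC, 47 were tested and 1 rose, Fstl1, by 2.37 ± 0.29 (adjusted p = 0.0191), from 163, 369 and 294 CPM to 1628, 1371, 1291 and 1409 CPM. Its call was lost without miR-17-5p RISC library 2, 5 or 6 (adjusted p up to 0.0995). The stellate and fibroblast markers summed to 3787 to 8437 CPM in control RISC and 18305 to 23044 CPM with miR-17-5p, and 4 of 11 tested rose. Macrophage and leukocyte markers summed to 0.188 to 122 CPM and 253 to 318 CPM, and 0 of 8 tested passed. Their part in the values of Id2, Smad6 and Acvr1 was not tested.

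Over the 7 RISC libraries and among 4325 genes above the same minimum, the genes most like Id2 were Vcl (Pearson correlation 0.985) and Actn1 (0.975), which encode proteins of cell adhesions, Serpinh1 (0.981), which encodes a collagen chaperone, Capzb (0.981), which caps actin filaments, and Dync1i2 (0.975), a dynein subunit. The 7 libraries hold both treatments and differ in depth and in genes detected, and these correlations too are a description.

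The last comparison tested whether the effect of miR-17-5p differed between RISC and mRNA, in a fit over all 15 libraries. It passed for Id2 and Smad6, 2 of 10 members, both with the larger log2 fold change in RISC, against 1533 of 11418 genes (13.4%), 13.0% with the larger value in RISC and 0.394% with the smaller. The difference of log2 fold changes was 5.99 ± 1.20 for Id2 (adjusted p = 0.00342) and 6.25 ± 1.83 for Smad6 (adjusted p = 0.0346). Both rest on control RISC libraries with 0 to 4 counts. The fit takes 1 spread per gene over both library types, although spread was wider in RISC. In the RISC comparison alone the SE was larger, at 2.00 for Id2 and 2.23 for Smad6. The p-values of the difference may therefore be too low. The call of Id2 held in all 15 fits that left out a library, with adjusted p from 1.9e-04 to 0.0116, and was lost with limma-voom (adjusted p = 0.412), which called no gene of the whole table. That call was also lost with a block for replicate numbers, which called 30 genes. The call of Smad6 was lost in 8 of the 15, among them those without control RISC library 1 (0.0556) or 3 (0.0585), with limma-voom and with that block.

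The other 8 members did not pass. For Bmpr2 the difference was 0.18 ± 0.55 (adjusted p = 0.964), for Smad5 0.19 ± 0.49 (0.945), for Id3 0.39 ± 1.37 (0.971), for Bmpr1a 0.69 ± 1.77 (0.944), for Smad1 1.02 ± 0.57 (0.311), for Acvr1 2.29 ± 1.32 (0.334), for Id1 -1.04 ± 1.59 (0.865) and for Id4 3.25 ± 2.57 (0.561). Without control RISC library 1, 4 members passed: Acvr1 at 1.94 (adjusted p = 0.0294), Bmpr1a at 7.05 (3.4e-04), Id2 at 5.54 (1.9e-04) and Smad1 at 1.87 (0.0113). In that fit 20.6% of all genes passed, and the median of all genes moved from 0.40 to 0.89. For Bmpr1a a single library with 1612 counts therefore decided whether the control RISC level was near that of miR-17-5p cells or near 0.

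**Figure D5:**
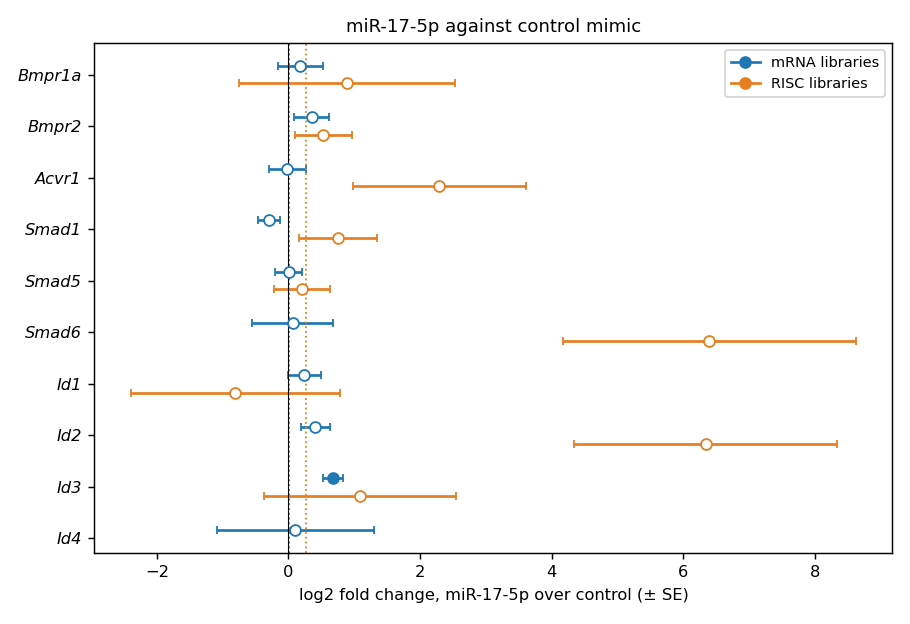
Log2 fold change of miR-17-5p over control for each gene in mRNA and in RISC libraries, as fitted by edgeR with SE bars; filled points had an adjusted p under 0.05 and dotted lines mark the median of all genes tested. Id3 in mRNA is the 1 filled point, and the RISC values of Id2 (6.34) and Smad6 (6.40) lie farthest right with SE bars of 2.00 and 2.23.

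Of the other BMP genes 54 were tested for this difference, and 5 passed (9.26%, below the 13.4% of all genes), all with the larger log2 fold change in RISC. Nbl1 held 1 count in control RISC and 383 with miR-17-5p, and its difference was 7.51 ± 1.73 (adjusted p = 0.00985). Rgma, a BMP co-receptor, held 4 and 1508 counts, and its difference was 6.87 ± 1.63 (adjusted p = 0.0115). Acvrl1, a type I receptor best known from endothelium, held 0 and 283 counts, at least 62.9-fold higher with miR-17-5p against a floor of 3 counts over the group (adjusted p = 0.0226). Bmp6 held 0 and 423 counts, at least 94.0-fold higher (adjusted p = 0.0347). Nkx2-3, the fifth and named after its value was seen, held 2 and 256 counts (adjusted p = 0.0495). These counts are pooled by group. In miR-17-5p RISC library 4 Acvrl1, Bmp6 and Nkx2-3 held 0 counts, and in library 6 Nbl1 held 0. For Acvrl1, Bmp6, Nkx2-3 and Nbl1 the groups thus overlapped, and their folds do not hold library by library. Rgma measured 0 to 0.385 CPM in control RISC and 30.3 to 63.8 CPM with miR-17-5p, without overlap. That separation was shown upward by 17.8% of genes tested in RISC and downward by 3.19%. Nbl1 and Rgma kept their call in all 15 fits that left out a library, Acvrl1 lost it without control mRNA library 1, and Bmp6 and Nkx2-3 lost it in 9 and 13 of the 15. With limma-voom, and with the block for replicate numbers, all 5 calls were lost. That of Nkx2-3 was also lost with DESeq2 size factors and with no filter on low counts.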

How the data were processed

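Deposited values were counts per gene, 1 table per library. Per the submitters' processing notes the authors used Bowtie2 and TopHat2 2.0.10 on the rat build rn5 and HTSeq for counting. DESeq and edgeR are named too, with no version. Per the labels' protocols RNA was extracted with Trizol, single-end libraries were made without keeping strand, and oligo(dT) selection is stated for mRNA libraries only. Reads of a gene and its antisense or overlapping neighbour are therefore not separable. Lines for ambiguous (0.151% to 0.454%) and not unique alignments (15.0% to 31.2%) name no gene and were left out.

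Groups came from sample titles. Tests on counts used edgeR 4.0.16 under R 4.3.3 (TMM factors, filterByExpr, robust quasi-likelihood F-tests, two-sided, Benjamini-Hochberg over all genes tested, called under 0.05), on the groups compared or, for the difference of effects, on all 15 libraries with 1 spread per gene. The SE given with edgeR values was derived from the test, as the size of the log2 fold change divided by the square root of F. It is not a separately fitted standard error. CPM used TMM factors within a library type. Similar genes used log2 CPM with a prior count of 2. The code was tested on simulated data. Libraries within a group differed by more than sampling noise (chi-square over degrees of freedom 7.08 to 327). Alternatives used DESeq2 1.42.0 and limma 3.58.1. Pooled ratios carry exact 95% intervals of counting error only.

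A gene of the pathway list is not reported here and is in no count of that list. The members and lists were chosen with earlier results of these data known. Genes named are the 10 members, up to 4 other BMP genes per direction and comparison by smallest p among those called, and the 5 genes most like the leading member in each library type. Whether replicate numbers in titles pair libraries is not known. Deviations of same-numbered libraries from their group means had correlations of -0.19 to 0.05. Genes at 0 in RISC limit what these correlations can show.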

Additional observations from a re-analysis of the deposited data

Results flagged for a closer look

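Among 20 groups of 4 or 5 libraries checked, 2 held a library far from the others, and chance gives about 1 in 20. Id4 measured 1.91 CPM in miR-17-5p RISC replicate 5 and 0 in the other 3 RISC libraries with miR-17-5p. Bmpr1a measured 28.2 CPM in miR-17-5p mRNA replicate 2 and 13.7 to 14.8 CPM in the other 4.

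The effect of miR-17-5p differed between RISC and mRNA, by the test of the difference itself in edgeR, for Id2 (5.99 on the log2 scale) and Smad6 (6.25), and among the other BMP genes for Nbl1 (7.51), Rgma (6.87), Acvrl1 (7.86), Bmp6 (7.32) and Nkx2-3 (5.60). In each case the control RISC libraries held 0 to 7 counts together. For all but Id2 and Rgma, 1 miR-17-5p RISC library also held only 0 or 1 counts. The fitted values depend on the prior count, and those of Acvrl1 and Bmp6, whose control RISC libraries were all at 0, are no bound. Of the 11418 genes tested, 13.0% passed in this direction. The test takes 1 spread per gene over both library types, although spread was wider in RISC, so its p-values may be too low.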

How the results depend on the processing

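Of the single-gene values recomputed under the alternatives, 990 kept direction and side of the threshold, 97 lost a call, 9 gained one and 45 changed sign. The cause of these changes was not tested. Control RISC libraries held 0 to 4 counts of Id2 and 0 to 1 of Smad6, which limits those values. Their totals were 4185123 to 13420403 counts, of which the gene Rn45s took 23.6% to 37.9%. It took 26.6% to 42.6% in miR-17-5p RISC libraries and 3.13% to 12.8% in mRNA libraries. The part of depth in the low counts was not tested. In mRNA, all genes called numbered 887 with the DESeq2 Wald test and 1001 with limma-voom. Smad5 was -0.0078 with DESeq2 size factors, -0.010 without Ins1, Ins2 and Rn45s, -0.0085 with the Wald test and -0.12 with limma-voom, and Id4 was -0.35 with limma-voom. In RISC, the Wald test called 2 members and 1305 genes, limma-voom called 20 genes, and Id1 was 3.25 with limma-voom. For RISC over mRNA in control cells, a mean of at least 50 counts left 1 member and 1254 genes called, and limma-voom gave Id1 at -2.83 and Bmpr1a at -3.51. In miR-17-5p cells Id1 was -0.10 with DESeq2 size factors and with the Wald test. For the difference, a mean of at least 50 counts left 1 member, limma-voom called 0 members and 0 genes, and it gave Id1 at 3.63 and Bmpr2 at -0.13. DESeq2 size factors moved the median of all genes from -0.69 to -0.87 in control cells, from -0.15 to -0.26 in miR-17-5p cells and from 0.40 to 0.27 in the difference.

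With the replicate block, 0 members and 0 genes were called in mRNA, with Id4 at -2.04 and Smad6 at -0.90. The block left 1 member and 338 genes in control cells (Id1 -0.21, Bmpr1a -3.64) and 0 members and 30 genes in the difference (Id1 0.11, Bmpr2 -0.034), and it kept the 6 members of miR-17-5p cells. Whether same-numbered libraries come from the same culture is not known, and the main fits used no block. The block fits a term for every replicate number, and with so few libraries little is left to estimate the spread. A call can be lost for that reason alone, so a loss under the block does not by itself show an unstable result. For the treatment comparison within RISC alone, no block could be fitted, since those groups share only number 2.

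Leaving out 1 library at a time gave 0 to 1 members and 85 (without control 3) to 816 genes (without miR-17-5p 1) in mRNA, with Id4 from -0.35 to 1.12, Bmpr1a from -0.10 to 0.61, Acvr1 from -0.22 to 0.14, Smad5 from -0.12 to 0.12 and Smad6 from -0.31 to 0.79. In RISC it gave 0 (without miR-17-5p 2, 5 or 6) to 1225 genes (without control 2), with Smad5 from -0.073 to 0.83. In control cells it gave 0 to 4 members and 1255 to 4540 genes, with Bmpr1a from -5.44 to 1.35 and Smad1 from -0.86 to 0.072. In miR-17-5p cells Id1 ran from -0.14 to 0.18, Id2 from -0.48 to 0.10 and Smad6 from -0.57 to 0.22. The difference ran from 1 to 4 members and 1203 to 2853 genes, with Id4 from -1.65 to 4.85 and Bmpr2 from -0.22 to 0.66.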
